A study of Mus musculus with 28 samples.

Results

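Genes that drive cell division and DNA replication were examined in injured and uninjured mouse cortex. A list of 52 gene symbols was used, 32 for the events of mitosis and 20 for the preparation and execution of DNA replication, and each gene was represented by the brightest array row annotated with it over the 28 arrays. Values were obtained for 50 of the 52 genes, 31 mitotic and 19 replication genes, of 65956 non-control rows tested and 30692 genes named. Each of the 50 had 1 row, so no choice between rows arose. The mitotic cyclin Ccnb1 and the helicase subunit Mcm7 had no row naming that gene alone and were not analysed here.

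The arrays (MTA 1.0) held total RNA from cortical brain tissue of mice aged 12 to 15 weeks, with 7 animals in each of 4 groups and 1 array per animal. WT stands for wild type, and KO for mice whose label gives a knockout of Rbm5, the gene of a splicing regulator. The labels give neither the knockout allele nor the strain. Sham mice received anaesthesia alone, whereas mice with controlled cortical impact (CCI), a mechanical model of traumatic brain injury, received a craniotomy over the left parietal cortex and an impact of 6 m/s to a depth of 1.2 mm. Craniotomy and impact therefore cannot be told apart in any CCI minus sham difference. Tissue was taken 48 h after the procedure, following perfusion with saline in every group. Each group held 3 males, except KO sham, which held 4.

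The deposited values are log2 signals, in which a difference of 1 is a 2-fold change. Array medians lay between 5.79 and 5.90. Rbm5 signal averaged 10.78 ± 0.042 (SD, n = 7) after sham and 10.66 ± 0.063 after CCI in wild type, against 9.76 ± 0.065 and 9.75 ± 0.038 in knockout, and the lowest wild type array (10.59) lay above the highest knockout array (9.84). Markers of striatum or choroid plexus were highest on 7 arrays, with the mean of either list at 8.70 or more. These were 4 injured wild type arrays (replicates 13, 14, 16 and 35), 2 injured knockout arrays (22 and 40) and 1 wild type sham array (25). Values without them are given for the 3 injury calls of the set that were lost. Smaller striatum means, still above those of WT sham (at most 7.505), occurred on arrays that were kept. They were 8.30 and 8.04 on KO CCI replicates 23 and 42, and 8.06 and 8.20 on KO sham replicates 9 and 32. Neuronal markers, which define brain tissue, averaged between 14.35 and 14.74 on every array.

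A cell that divides copies its DNA in S phase and separates the copies in mitosis. Before S phase the licensing factors Cdc6 and Cdt1 load the hexameric MCM helicase onto origins, cyclin E with Cdk2 and the E2F transcription factors promote entry into S phase, and ribonucleotide reductase, thymidylate synthase and thymidine kinase supply the nucleotides. Cyclin A and cyclin B with Cdk1 then drive mitosis, spindle kinesins and mitotic kinases move and check the chromosomes, and the anaphase-promoting complex ends the process. Most neurons of the adult cortex do not divide, whereas microglia, oligodendrocyte precursors, astrocytes and vascular cells can divide after injury. Many replication genes carry E2F binding motifs in their promoters, and many mitotic genes carry a cell cycle homology region (CHR) beside CCAAT boxes, through which the DREAM and MuvB complexes act.

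Promoters are shown for the 3 mitotic and the 2 replication genes with the largest injury change among those with 1 listed promoter, and for Ccne1, which was not called, because their letters differ between the classes. The windows run from 250 bases before to 50 bases after the RefSeq start site on GRCm38.p6. Capitals mark the motifs, which were searched on both strands with overlapping matches counted. CHR was searched as TTTGAA. Its variant was searched as TTCGAA, which reads the same on both strands. The other motifs were the CCAAT box and an E2F motif written TTNGCGC, whose matches on opposite strands can overlap. Mki67 lies at chr7:135716330-135716629 on the minus strand, Top2a at chr11:99024140-99024439 on the minus strand, Kif11 at chr19:37376132-37376431 on the plus strand, Mcm3 at chr1:20820263-20820562 on the minus strand, Mcm6 at chr1:128359656-128359955 on the minus strand and Ccne1 at chr7:38107441-38107740 on the minus strand, and each sequence reads 5′ to 3′ along the gene.
Mki67: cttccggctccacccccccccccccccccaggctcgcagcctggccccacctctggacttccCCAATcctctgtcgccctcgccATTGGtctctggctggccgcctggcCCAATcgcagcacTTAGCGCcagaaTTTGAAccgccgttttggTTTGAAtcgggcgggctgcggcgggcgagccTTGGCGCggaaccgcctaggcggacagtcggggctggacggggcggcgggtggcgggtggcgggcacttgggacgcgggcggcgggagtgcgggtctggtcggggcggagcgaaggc
Top2a: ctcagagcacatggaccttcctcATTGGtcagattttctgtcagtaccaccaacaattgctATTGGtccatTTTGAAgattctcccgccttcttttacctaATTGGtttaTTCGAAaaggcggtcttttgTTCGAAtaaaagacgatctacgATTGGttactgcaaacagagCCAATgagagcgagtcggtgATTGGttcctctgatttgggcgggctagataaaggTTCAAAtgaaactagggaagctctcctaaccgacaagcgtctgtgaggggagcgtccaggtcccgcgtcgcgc
Kif11: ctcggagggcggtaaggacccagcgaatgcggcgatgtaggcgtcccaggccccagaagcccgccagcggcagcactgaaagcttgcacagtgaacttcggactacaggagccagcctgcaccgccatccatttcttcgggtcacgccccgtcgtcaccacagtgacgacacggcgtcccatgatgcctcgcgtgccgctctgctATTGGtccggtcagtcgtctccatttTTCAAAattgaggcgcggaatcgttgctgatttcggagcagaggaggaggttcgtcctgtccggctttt
Mcm3: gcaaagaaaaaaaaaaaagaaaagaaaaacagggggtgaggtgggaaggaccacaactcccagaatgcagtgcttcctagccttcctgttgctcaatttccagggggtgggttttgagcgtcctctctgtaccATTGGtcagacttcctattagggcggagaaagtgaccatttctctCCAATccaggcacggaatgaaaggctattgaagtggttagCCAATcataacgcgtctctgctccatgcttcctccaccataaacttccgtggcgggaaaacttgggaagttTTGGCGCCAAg
Mcm6: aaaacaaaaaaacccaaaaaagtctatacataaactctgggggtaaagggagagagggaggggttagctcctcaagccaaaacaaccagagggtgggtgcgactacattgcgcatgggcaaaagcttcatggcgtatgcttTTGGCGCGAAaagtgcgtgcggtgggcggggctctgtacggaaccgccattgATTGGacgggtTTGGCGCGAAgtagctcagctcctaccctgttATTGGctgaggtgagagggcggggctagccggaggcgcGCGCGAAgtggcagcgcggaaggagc
Ccne1: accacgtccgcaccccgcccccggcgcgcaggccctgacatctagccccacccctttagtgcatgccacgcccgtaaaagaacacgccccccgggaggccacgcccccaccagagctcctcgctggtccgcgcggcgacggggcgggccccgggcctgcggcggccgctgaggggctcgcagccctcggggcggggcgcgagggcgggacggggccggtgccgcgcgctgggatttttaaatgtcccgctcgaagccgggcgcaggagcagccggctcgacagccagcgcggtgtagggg
The Mki67 window holds 2 CHR, 3 CCAAT and 2 E2F matches. The Top2a window holds 2 CHR matches, 2 of the variant and 6 CCAAT matches, and no E2F match. In Kif11 the only CHR match starts 19 bases before the start site and the only CCAAT match 45 bases before it. The Mcm3 window holds 3 CCAAT and 2 E2F matches and the Mcm6 window 2 CCAAT and 5 E2F matches, with no CHR match in either. The Ccne1 window holds none of the 4 motifs as written above. Other forms of these sites, among them other forms of the E2F motif, were not searched in any promoter. A match describes these letters alone and is not evidence of binding.

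The classes differed in the same way over all matched promoters. RefSeq's table held 49 promoters for 45 of the 52 listed genes, among them Ccnb1 and Mcm7. Ccna2, Aurkb, Kif20a, Tpx2, Mcm4, Gins2 and Ccne2 were not matched. CHR was present in 24 of 30 mitotic promoters (80%) and in 1 of 19 replication promoters (5.26%), compared with 17.9% of all 32851 promoters in the table. CHR and CCAAT occurred together in 73.3% of mitotic, 5.26% of replication and 6.95% of all promoters. E2F matches were present in 8 of 19 replication promoters (42.1%), in 6 of 30 mitotic promoters (20%) and in 6.36% of all promoters. The listed start of E2f1 may not be that of its main transcript, and its window, without any of the motifs, is among the 19. Without it, a choice made after seeing the data, 44.4% of the replication promoters held an E2F match, 66.7% CCAAT and 5.56% CHR. CCAAT, counted with or without CHR, was common in both classes, at 83.3% of mitotic and 63.2% of replication promoters, compared with 37.4% of all. These shares describe the promoters and were not tested.

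**Figure D1:**
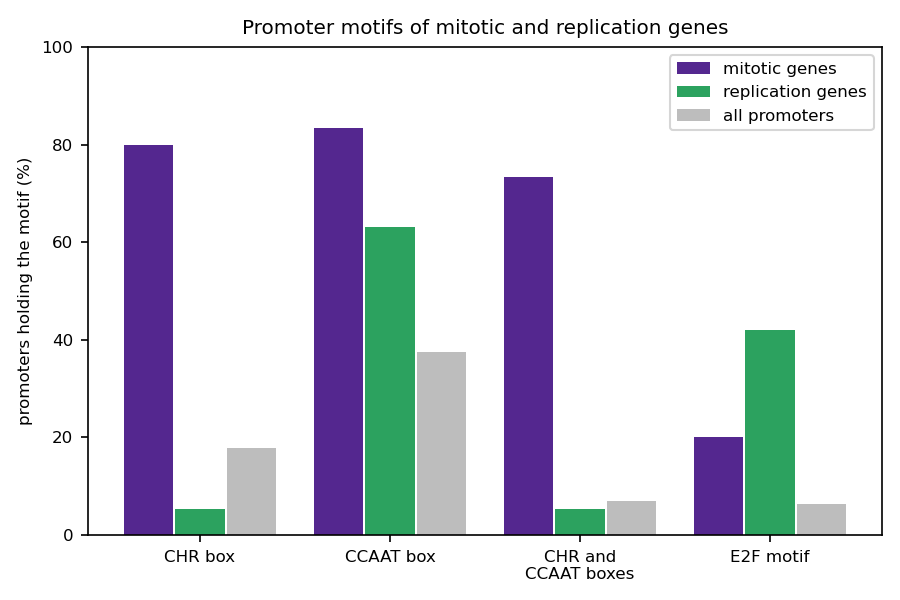
Share of promoters that hold each motif (percent, from 0 to 100) among 30 promoters of mitotic genes, 19 of replication genes and all 32851 promoters in the table. CHR reaches 80% of the mitotic and 5.26% of the replication promoters, and the E2F motif 20% and 42.1%.

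In wild type cortex, injury raised nearly the whole set. After CCI, 48 of 50 genes rose and none fell by limma at adjusted p under 0.05, where 8.86% of all rows tested were called higher and 7.96% lower. All 31 mitotic genes and 17 of 19 replication genes were among them. The median change was 0.66 on the log2 scale over the mitotic genes and 0.47 over the replication genes, against -0.02 over all rows. At least 2-fold rises were made by 13 genes, 10 mitotic and 3 replication (0.764% of all rows were called with such a rise), and in 42 genes every CCI array lay above every sham array, as it did in 4.44% of all rows. The mean sham signal of 29 of the 50 genes lay below the lowest array median, 5.79. Of these, Aurkb, Birc5, Cdc20, Cdca3, Ttk, Melk, Tk1, Cdc6 and Cdt1 lay below 5.79 on every array, injured arrays included. The signals carry no detection calls, so the fold change of any of the 29 is not exact.

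The proliferation antigen Mki67, which coats mitotic chromosomes, changed most. Its log2 signal ran from 5.31 through a median of 5.46 to 5.88 on the WT sham arrays, and from 7.31 through 9.19 to 9.68 on the WT CCI arrays. The groups did not overlap. The difference was 3.42 (SE 0.25, 10.7-fold, limma adjusted p = 8.99e-11), and since the sham mean, 5.51, lay below the lowest array median, this fold is not exact. Top2a, the topoisomerase that untangles replicated chromosomes, lay between 5.37 and 5.52 (median 5.40) after sham and between 6.48 and 8.06 (median 7.67) after CCI. It too showed no overlap, with a difference of 2.20 (SE 0.18, 4.59-fold, limma adjusted p = 3.7e-10).

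The cyclins and Cdk1 rose together, 3 of 3 measured, with a median change of 1.16. Ccna2, the cyclin of S phase and early mitosis, lay between 6.04 and 6.22 (median 6.10) after sham and between 7.00 and 8.12 (median 7.75) after CCI. Every injured array was higher, and the rise was 1.61 (SE 0.12, 3.06-fold, limma adjusted p = 1.26e-10). Ccnb2, a B-type cyclin that activates Cdk1, rose 2.23-fold, and Cdk1, the kinase both partner with, rose 1.49-fold from a sham mean of 5.10, below the array median. Each of the 7 mitotic kinases rose, by a median of 0.58. Of these Bub1, which holds the cell at the spindle checkpoint, ran from 4.52 to 4.88 (median 4.68) after sham and from 5.22 to 6.26 (median 5.93) after CCI. Its rise of 1.22 (SE 0.12, limma adjusted p = 1.21e-08) was 2.34-fold without overlap. Plk1, which builds spindle poles and starts mitotic exit, rose 1.97-fold, whereas the kinases Aurka, Aurkb, Bub1b, Ttk and Melk rose between 1.31-fold and 1.58-fold.

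Kinesins and spindle proteins rose in 8 of 8 cases, with a median of 0.93. Kif11, the motor that pushes spindle poles apart, lay between 5.66 and 5.87 (median 5.78) after sham and between 6.51 and 8.09 (median 7.58) after CCI. Its rise of 1.78 (SE 0.17, 3.43-fold, limma adjusted p = 9.55e-09) came without overlap. Prc1, which bundles the central spindle, lay between 5.73 and 5.87 (median 5.81) after sham and between 6.35 and 7.44 (median 7.05) after CCI, a rise of 1.23 (SE 0.11, 2.34-fold, limma adjusted p = 3.95e-09). Tpx2, which activates Aurora A on the spindle, lay between 6.18 and 6.33 (median 6.27) and between 6.71 and 7.80 (median 7.49), a rise of 1.20 (SE 0.12, 2.29-fold, limma adjusted p = 1.84e-08). In both genes all injured arrays lay above all sham arrays. The mitotic kinesins Kif20a, Kif23, Kif2c and Kif4 and the microtubule binder Nusap1 rose between 1.47-fold and 1.92-fold.

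Cytokinesis genes rose in 3 of 3 cases. Ect2, the exchange factor that sets up the contractile ring, lay between 5.36 and 5.72 (median 5.56) after sham and between 6.20 and 7.54 (median 7.14) after CCI. Its rise of 1.50 (SE 0.13, 2.82-fold, limma adjusted p = 2.59e-09) came without overlap. Racgap1, its partner at the midzone, rose 1.36-fold. Anln, a scaffold of the contractile ring that also occurs in myelin, rose 1.49-fold with overlapping groups. Centromere and passenger genes rose in 5 of 5 cases by a median of 0.32, with the kinetochore motor Cenpe at 2.12-fold and the passenger subunit Birc5 at 1.2-fold (limma adjusted p = 0.00767). The anaphase-promoting complex group also rose in 3 of 3 cases, led by its conjugating enzyme Ube2c at 1.93-fold, with its activator Cdc20 at 1.3-fold and Cdca3 at 1.15-fold.

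**Figure D2:**
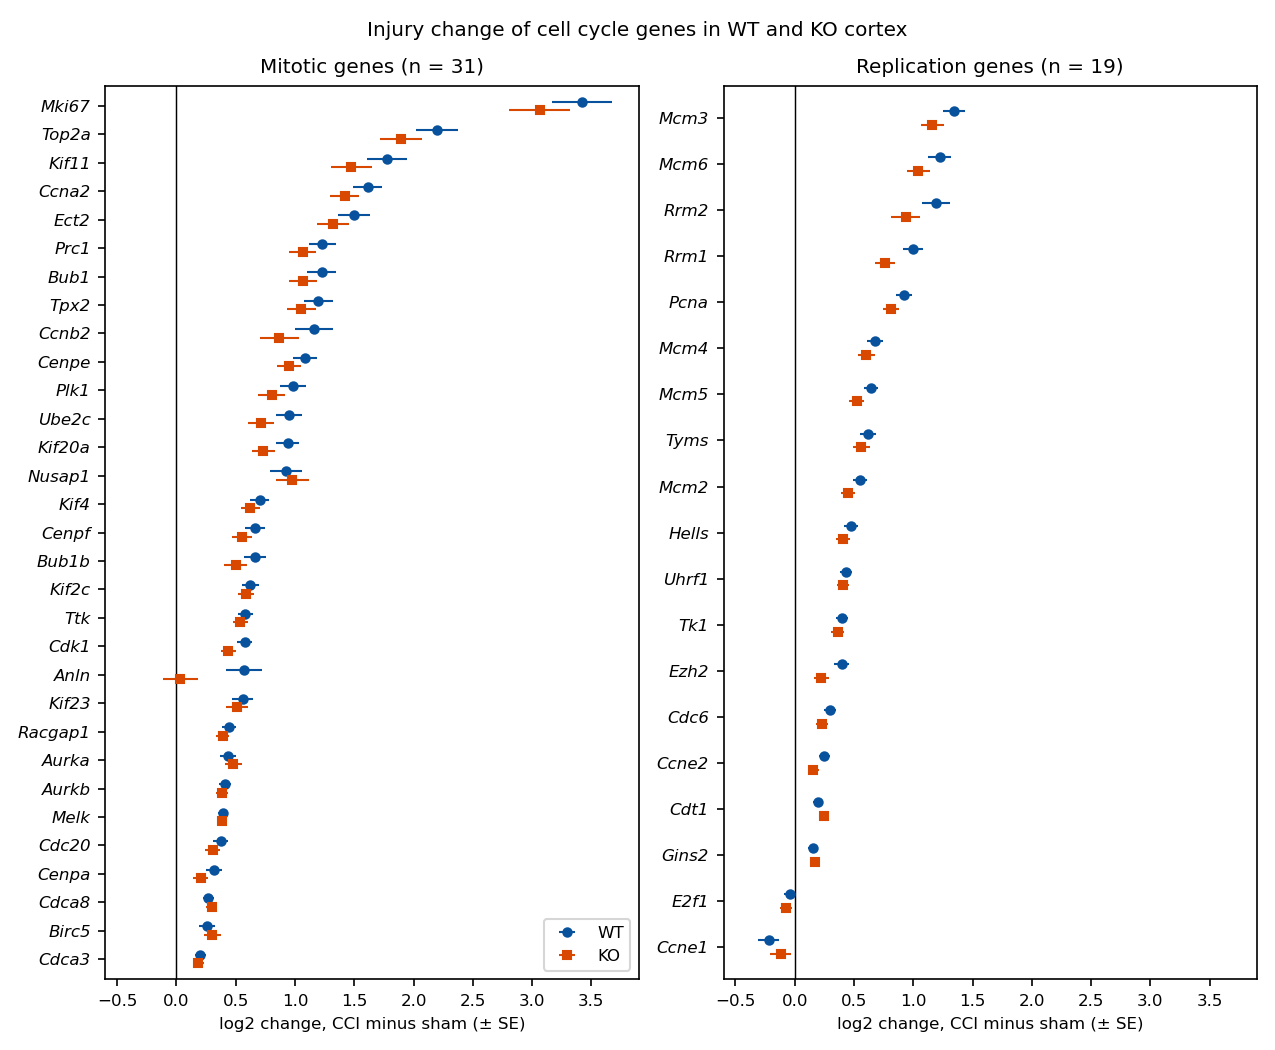
Injury change of each gene (log2, CCI minus sham, from limma, n = 7 per group, bars ± SE) for 31 mitotic genes on the left and 19 replication genes on the right, in WT (circles) and KO (squares). Mki67 stands at 3.42 in WT and 3.06 in KO, the highest replication gene, Mcm3, at 1.34 and 1.16, and Ccne1 and E2f1 lie below 0 in both genotypes without a call.

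Among replication genes, the MCM helicase rose in 5 of 5 measured subunits, with a median of 0.68. Mcm3 lay between 5.48 and 5.70 (median 5.55) after sham and between 6.61 and 7.23 (median 6.95) after CCI. The groups did not overlap, and the rise was 1.34 (SE 0.10, 2.54-fold, limma adjusted p = 3.7e-11). Mcm6 lay between 5.66 and 5.87 (median 5.81) after sham and between 6.70 and 7.47 (median 6.98) after CCI, again without overlap, a rise of 1.22 (SE 0.10, 2.34-fold, limma adjusted p = 2.55e-10). Mcm2, Mcm4 and Mcm5 rose between 1.47-fold and 1.6-fold.

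Genes of nucleotide supply rose in 4 of 4 cases by a median of 0.81. Rrm2, the inducible subunit of ribonucleotide reductase, rose 2.29-fold (limma adjusted p = 2.26e-08), and its larger partner Rrm1 rose by 1.00 on the log2 scale (SE 0.08, limma adjusted p = 9.28e-10). Tyms and Tk1, which make thymidine nucleotides, rose 1.54-fold and 1.32-fold. Of the licensing and fork genes, the sliding clamp Pcna rose 1.9-fold, with 9.07 to 9.43 after sham and 10.04 to 10.40 after CCI. The licensing factors Cdc6 and Cdt1 and the helicase cofactor Gins2 rose between 1.11-fold and 1.23-fold. Uhrf1, Hells and Ezh2, which carry DNA methylation and histone marks through replication, rose between 1.32-fold and 1.39-fold.

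Control genes of the step from G1 to S phase had the lowest median change of the 12 roles, -0.04 in WT. Ccne1, the cyclin that starts S phase with Cdk2, lay between 7.44 and 7.76 (median 7.63) after sham and between 7.05 and 7.61 (median 7.40) after CCI. Its difference was -0.22 (SE 0.09, limma adjusted p = 0.087), and the groups overlapped. Without WT CCI replicate 16 it was -0.26 (limma adjusted p = 0.0478). E2f1, an activating E2F, lay between 5.79 and 6.05 (median 5.87) after sham and between 5.80 and 5.93 (median 5.86) after CCI, a difference of -0.04 (SE 0.05, limma adjusted p = 0.672). Ccne2, the other cyclin E, rose 1.19-fold (limma adjusted p = 0.000341). All 3 had sham means above the lowest array median.

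In knockout cortex, 47 of 50 genes rose after CCI and none fell, where limma called 8.43% of all rows higher and 8.27% lower. The mitotic genes accounted for 30 of 31 and the replication genes for 17 of 19. Median changes were 0.58 for mitotic and 0.41 for replication genes, against 0.01 over all rows. At least 2-fold rises were made by 10 genes, 8 mitotic and 2 replication (0.508% of all rows), and in 41 genes the groups did not overlap (3.51% of all rows). The genotypes' injury comparisons share no array.

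Of the 10 genes with the largest rises in each genotype, 10 were shared. Mki67 lay between 5.35 and 6.14 (median 5.54) in KO sham and between 7.54 and 9.30 (median 8.94) in KO CCI, a rise of 3.06 (SE 0.26, 8.36-fold, limma adjusted p = 1.52e-09). Top2a lay between 5.32 and 5.68 (median 5.45) and between 6.73 and 7.85 (median 7.50), a rise of 1.89 (SE 0.18, 3.71-fold, limma adjusted p = 1.1e-08). Neither gene overlapped between the groups. Ccna2 lay between 6.01 and 6.31 (median 6.20) and between 7.22 and 8.01 (median 7.62), a rise of 1.42 (SE 0.12, 2.67-fold, limma adjusted p = 2.93e-09). Kif11 lay between 5.78 and 6.14 (median 5.91) and between 6.82 and 7.79 (median 7.43), a rise of 1.47 (SE 0.17, 2.78-fold, limma adjusted p = 4.3e-07). Both the cyclin and the kinesin again lay higher on every injured array.

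Ect2 lay between 5.51 and 5.69 (median 5.59) in KO sham and between 6.52 and 7.11 (median 7.04) in KO CCI, a rise of 1.32 (SE 0.13, 2.5-fold, limma adjusted p = 4.73e-08). Mcm3 lay between 5.36 and 5.69 (median 5.54) and between 6.44 and 7.08 (median 6.68), a rise of 1.16 (SE 0.10, 2.24-fold, limma adjusted p = 1.15e-09). The groups of both genes were separate. Bub1, Prc1, Tpx2 and Mcm6 rose 2.1-fold, 2.09-fold, 2.08-fold and 2.06-fold, each without overlap. By role, the median changes in knockout were 0.87 for the cyclins and Cdk1, 0.50 for the kinases, 0.86 for kinesins and spindle proteins, 0.60 for the MCM subunits and 0.66 for nucleotide supply.

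**Figure D3:**
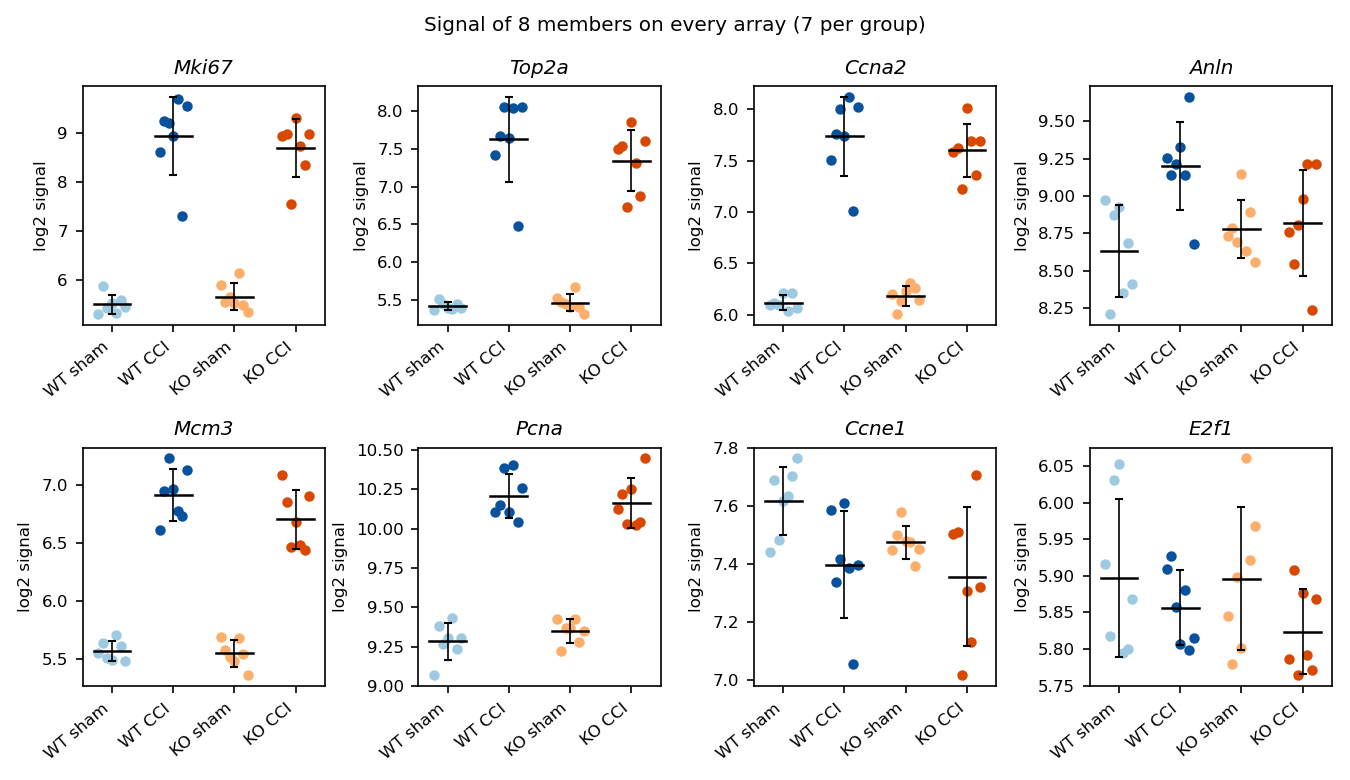
Log2 signal of 8 genes on every array (points, 7 per group), with the group mean (bar) and SD (whiskers). Mki67, Top2a, Ccna2, Mcm3 and Pcna are separate between sham and CCI in both genotypes, and Anln, Ccne1 and E2f1 overlap between all groups.

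Ccne1, E2f1 and Anln were not called in knockout. Ccne1 lay between 7.39 and 7.58 (median 7.47) after sham and between 7.02 and 7.71 (median 7.32) after CCI, a difference of -0.12 (SE 0.09, limma adjusted p = 0.431). E2f1 lay between 5.78 and 6.06 (median 5.90) and between 5.76 and 5.91 (median 5.79), a difference of -0.07 (SE 0.05, limma adjusted p = 0.398). Both genes' groups overlapped. The calls of 2 more genes depended on single arrays. Cenpa, the histone of centromeres, rose 1.15-fold (limma adjusted p = 0.0304), and its adjusted p lay between 0.05 and 0.0862 on leaving out KO sham replicate 9, 11 or 12 or KO CCI replicate 21, 22, 24 or 42. Ccne2 rose 1.11-fold (limma adjusted p = 0.0236), and its adjusted p lay between 0.0607 and 0.0735 on leaving out KO sham replicate 12 or KO CCI replicate 22 or 42. Centring the arrays on their medians ended both calls and those of Cdca3 and Ezh2. Without the 7 arrays high in striatum or choroid plexus markers, Ccne2 differed by 0.16 (limma adjusted p = 0.0586) and Ezh2 by 0.22 (limma adjusted p = 0.0775).

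Anln overlapped between sham and CCI in both genotypes. It lay between 8.21 and 8.97 (median 8.68) in WT sham and between 8.68 and 9.66 (median 9.22) in WT CCI, a rise of 0.57 (SE 0.15, 1.49-fold, limma adjusted p = 0.00715) with overlapping groups. In knockout it lay between 8.56 and 9.15 (median 8.74) after sham and between 8.23 and 9.21 (median 8.81) after CCI, a difference of 0.03 (SE 0.15, limma adjusted p = 0.924). The test of the difference between these changes gave -0.54 (SE 0.21, unadjusted p = 0.0176, limma adjusted p = 0.779) and was not past the threshold. Without the 7 arrays high in striatum or choroid plexus markers, the wild type difference was 0.33 (limma adjusted p = 0.313).

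The 2 title-number runs of the samples, 1 to 24 and 25 to 42, hold all 4 groups each, and the labels do not call them batches. Within the runs the mitotic median change was 0.67 and 0.68 in WT and 0.59 and 0.58 in KO, and the replication median 0.50 and 0.52 in WT and 0.43 and 0.41 in KO. The change of Mki67 was 3.45 and 3.38 in WT and 3.03 and 3.02 in KO. Within title numbers 25 to 42 alone, with 3 arrays per group, limma called 36 genes in WT and 23 in KO. Of all 65956 rows it called 5217 in WT and 2567 in KO there, in either direction. With all arrays it called 11094 and 11017 rows.

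The changes of the mitotic genes were the larger ones by their median in both genotypes. The mean signal over the 31 mitotic genes ran from 5.42 to 5.51 (median 5.46) on WT sham arrays and from 5.87 to 6.61 (median 6.39) on WT CCI arrays. It ran from 5.43 to 5.58 (median 5.48) in KO sham and from 5.92 to 6.46 (median 6.31) in KO CCI. The mean over the 19 replication genes ran from 6.30 to 6.33 (median 6.31) in WT sham, from 6.71 to 7.02 (median 6.84) in WT CCI, from 6.30 to 6.39 (median 6.33) in KO sham and from 6.70 to 6.92 (median 6.84) in KO CCI. Injured and sham arrays were separate for both means in both genotypes. Absolute signals of different rows cannot be compared, so only the change of the difference is read. The mean of the mitotic genes gained 0.36 over that of the replication genes after CCI in WT and 0.31 in KO. These gains carry no test, since the genes were chosen with results of these data known. They do not hold for every role. In WT the medians of the MCM subunits (0.68) and nucleotide supply (0.81) exceeded those of 3 mitotic roles. These were the kinases (0.58), the anaphase-promoting complex group (0.37) and the centromere and passenger genes (0.32). Mki67 and Top2a (median 2.81) and the G1 to S control genes (-0.04) lay at the ends and widen the gain. The gain without them was not computed.

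**Figure D4:**
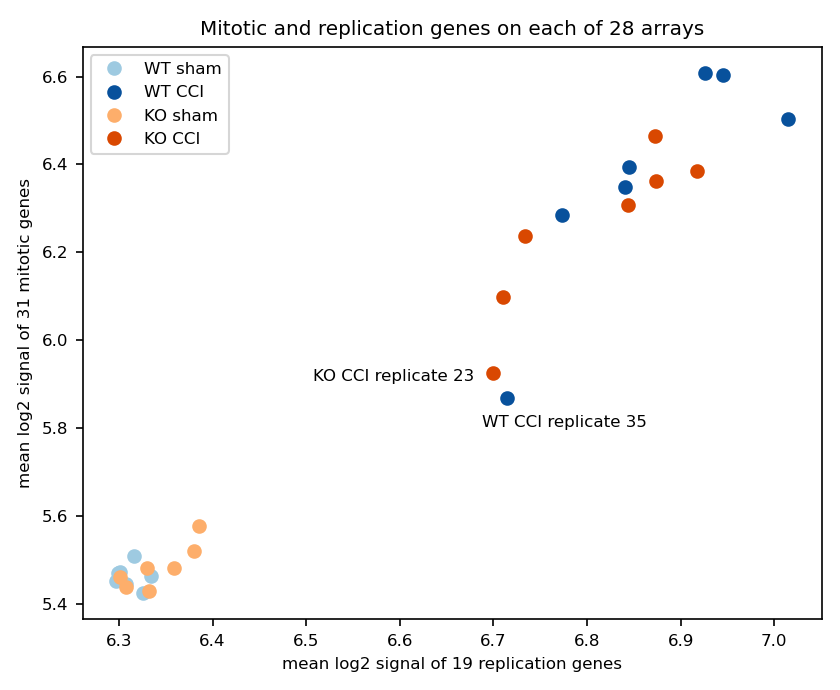
Mean log2 signal of 19 replication genes (horizontal axis) against the mean of 31 mitotic genes (vertical axis) on each of 28 arrays, coloured by group. Sham arrays lie within 5.42 to 5.58 on the mitotic axis, and the lowest injured arrays, WT CCI replicate 35 at 5.87 and KO CCI replicate 23 at 5.92, lie between the sham arrays and the other injured arrays.

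The spread between arrays was larger after injury for most mitotic genes. The SD between arrays was larger after CCI for 29 of 31 mitotic genes in WT and for 29 of 31 in KO, where 60.2% and 55% of all rows had a larger SD. The median SD of the mitotic genes went from 0.07 to 0.28 in WT and from 0.10 to 0.20 in KO. For replication genes the SD was larger in 16 of 19 cases in WT and 14 of 19 in KO. Their median went from 0.08 to 0.12 and from 0.08 to 0.10. Over all rows the median SD went from 0.14 to 0.15 in both genotypes. Sham means lay below the lowest array median for 21 of 31 mitotic and 8 of 19 replication genes. The part of low signal in these spreads was not tested. The genes share the same arrays, so these counts are not of separate observations.

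In each genotype 1 injured array held most of the lowest values of the mitotic genes. WT CCI replicate 35 was the lowest of its group for 28 of 31 mitotic genes and 9 of 19 replication genes. Anln went the other way, with its highest WT CCI value on replicate 35 (9.66) and its lowest on replicate 36 (8.68). KO CCI replicate 23 was the lowest of its group for 27 mitotic and 5 replication genes, whereas KO CCI replicate 41 was lowest for 7 and replicate 40 for 5 replication genes. Among the highest values, WT CCI replicate 34 led for 15 and replicate 36 for 12 mitotic genes, replicate 15 led for 10 replication genes, and KO CCI replicate 24 led for 21 mitotic genes. The mitotic minus replication difference on WT CCI replicate 35, -0.84, lay among those of WT sham (-0.90 to -0.81), whereas the other WT CCI arrays lay between -0.51 and -0.32. On KO CCI replicate 23 it was -0.77, and the other KO CCI arrays lay between -0.61 and -0.41.

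Cell type markers moved with these arrays. The mean of 9 microglia markers was lowest of the WT CCI arrays on replicate 35 (7.92, the highest being 8.74) and lowest of the KO CCI arrays on replicate 23 (7.94, the highest being 8.61), where sham arrays ran from 7.26 to 7.61. The mean of 6 oligodendrocyte precursor markers was likewise lowest on these arrays, at 8.28 and 8.45. On replicate 35 the means of the astrocyte (11.10), endothelial (8.66), pericyte and fibroblast (7.49) and neural progenitor (7.35) markers were also the lowest of the WT CCI arrays, whereas the neutrophil (5.97) and striatum markers (9.58) were the highest. The monocyte and macrophage markers were not low there, with 8.14 on replicate 35 within 7.69 to 8.49 of its group and 8.07 on KO CCI replicate 23 within 7.62 to 8.31. On replicate 23 the endothelial (8.385) and pericyte and fibroblast (7.429) means lay next to the lowest of the KO CCI arrays. Those lowest means were on replicate 41 (8.365 and 7.427). The astrocyte mean of replicate 23 (11.108) lay within 11.044 to 11.438 of its group, and its neural progenitor mean (7.583) was the highest. Its striatum mean was 8.303, within 6.804 to 9.904 of the group. Without replicate 35 the change of Mki67 in WT was 3.68, and without replicate 23 that in KO was 3.23. With both arrays left out, an alternative chosen after seeing the data, 48 and 47 genes were called, and the gain of mitotic over replication genes was 0.42 in WT and 0.34 in KO. The part that the makeup of the tissue pieces had in this spread was not tested.

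**Figure D5:**
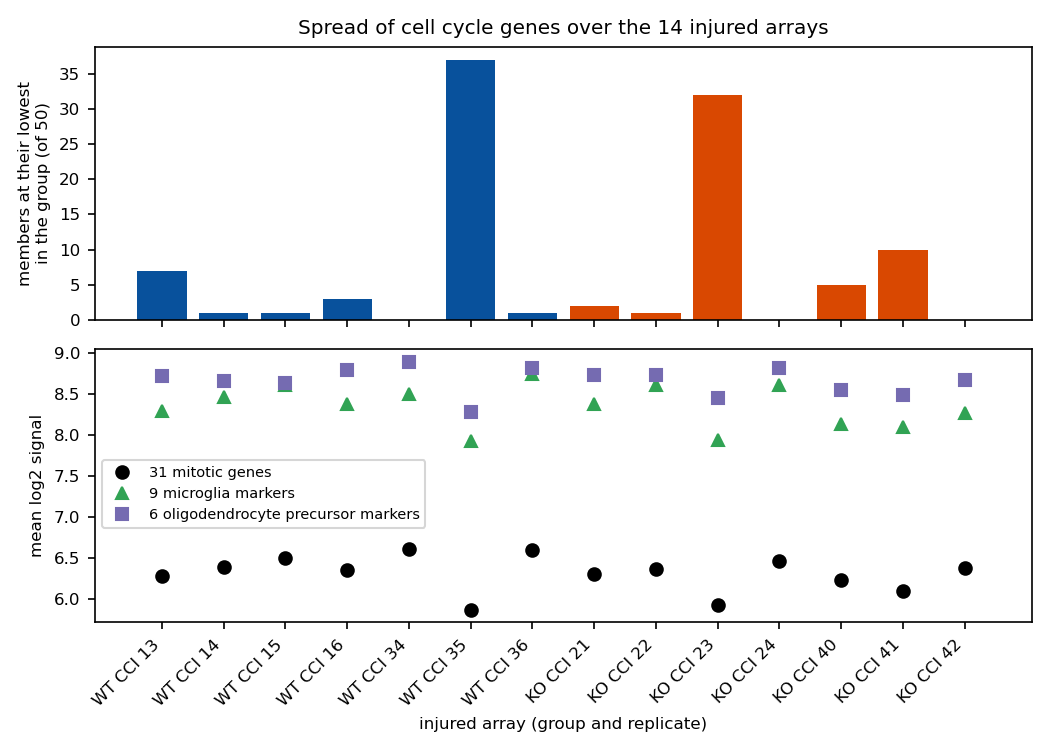
Top, the number of the 50 genes (bars) that were at their group's lowest value on each of the 14 injured arrays, 7 WT and 7 KO. Bottom, the mean log2 signal on the same arrays of 31 mitotic genes, 9 microglia markers and 6 oligodendrocyte precursor markers, all of which are low on WT CCI replicate 35 (37 genes lowest) and KO CCI replicate 23 (32 genes lowest).

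No gene of the set was called between the genotypes by limma, which is not evidence that none differed. After sham, 0 of 50 were called, where 1.28% of all rows were called, and 1 had an unadjusted p under 0.05 (11.1% of all rows). That gene was the histone methyltransferase Ezh2, which lay between 7.56 and 7.79 (median 7.74) in WT sham and between 7.71 and 8.06 (median 7.91) in KO sham, a difference of 0.20 (SE 0.07, unadjusted p = 0.00476, limma adjusted p = 0.152). The groups overlapped. The next smallest p-values belonged to Ccne2 (0.09), Ccne1 (-0.14), Melk (-0.07) and Hells (0.09), given as log2 differences with limma adjusted p between 0.484 and 0.603. All 4 groups shared a spread in the fit. The median SD of the mitotic genes was 0.07 in WT sham and 0.28 in WT CCI. SEs of such genes can be too wide after sham and too narrow after CCI. The share of the set under the unadjusted threshold is therefore not read as low. With only the compared arrays in the fit, 0 of 50 were called after sham (665 of 65956 rows) and 0 after CCI (131 rows).

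After CCI, 0 of 50 genes were called between the genotypes (0.653% of all rows), and 3 had an unadjusted p under 0.05 (9.8% of all rows). They were Anln at -0.38 (SE 0.15, limma adjusted p = 0.353), Mcm3 at -0.21 (SE 0.10, limma adjusted p = 0.457) and the central spindle kinesin Kif23 at -0.19 (SE 0.09, limma adjusted p = 0.507). Melk at -0.08 and Cdc20 at -0.11 followed with limma adjusted p of 0.56 and 0.606. The KO minus WT difference lay below 0 for 44 of 50 genes with a median of -0.09, where 45.9% of all rows lay below 0. All 50 were measured on the same arrays, so this count is not one of separate observations. Cell type markers were lower in injured knockout too. All 8 endothelial markers lay below 0 with a median of -0.24, and 2 of them were called lower by limma. All 9 microglia markers lay below 0 with a median of -0.10, as did 8 of 10 monocyte and macrophage markers with a median of -0.16, with none called. The part of these cells in the shift of the cell cycle genes was not tested.

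The injury change in KO minus that in WT was called for 0 of 50 genes and for 0% of all rows. An unadjusted p under 0.05 was reached by 1 gene of the set, Anln, and by 6.21% of all rows. The coefficient lay below 0 for 43 of 50 genes, 27 of 31 mitotic and 16 of 19 replication, with a median of -0.11, against 0.02 over all rows, of which 44% lay below 0. After Anln the smallest p-values were those of Rrm1 (-0.24, SE 0.12), Ezh2 (-0.17, SE 0.09), Cdk1 (-0.14, SE 0.09) and Ube2c (-0.24, SE 0.15), with limma adjusted p between 0.812 and 0.829. For Mki67 the coefficient was -0.36 with an SE of 0.36. These values come from the same 28 arrays as the injury changes above and are not separate evidence.

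The injury change did not differ by sex past the threshold for any gene, with 0 of 50 called and 0.0106% of all rows. The smallest p was that of Cdc6 (males minus females -0.18, SE 0.06, unadjusted p = 0.00568, limma adjusted p = 0.589), and 6.15% of all rows had an unadjusted p under 0.05, compared with 1 gene here. Tk1 (-0.14), Cdca8 (-0.11), Ttk (0.15) and Uhrf1 (-0.09) followed with limma adjusted p between 0.817 and 0.893. The mitotic median change was 0.74 in WT males, 0.66 in WT females, 0.61 in KO males and 0.63 in KO females.

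Other genes of the same pathway were read from lists outside the set. For the counts in these lists, 8.86% of all rows were called higher and 7.96% lower in WT. In KO the shares were 8.43% and 8.27%. All 5 measured G1 cyclins and kinases rose in both genotypes, led in WT by Cdk4 (1.65-fold), Cdk6 (1.63-fold) and Cdk2 (1.53-fold), which phosphorylate the retinoblastoma protein. Ccnd1 had no row naming it alone. Of 41 further mitosis genes, 32 rose and 2 fell in WT and the same numbers did in KO. The condensin subunit Smc4 rose 2.38-fold, the spindle protein Ckap2 2.34-fold and the kinase Pbk 2.24-fold in WT. Those that fell in WT were Wee1, which restrains Cdk1, by 0.24, and the phosphatase Cdc25b, which activates it, by 0.21 (limma adjusted p = 0.0428). The call of Cdc25b was lost on leaving out any array of its comparison except WT sham replicate 1 and WT CCI replicates 13, 14 and 15, and the difference was -0.15 without WT CCI replicate 35.

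Of 36 further replication genes, 18 rose and 1 fell in WT, and 18 rose and 2 fell in KO. The checkpoint adaptor Clspn, the polymerase subunit Pole and the helicase cofactor Gins1 each rose about as much, 1.42-fold, 1.42-fold and 1.41-fold in WT, and the origin subunit Orc4 fell by 0.21. The median change over these 36 was 0.16 in WT and 0.14 in KO, compared with 0.41 and 0.41 over the 41 further mitosis genes, again without a test between the lists.

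Among 16 measured genes of the Rb, E2F and Myb families and the MuvB complex, 5 rose and 1 fell in WT, and 6 rose and 2 fell in KO. The pocket protein Rbl1 rose 2.03-fold in WT and 1.88-fold in KO, and the repressive E2F member E2f8 rose 1.63-fold and 1.4-fold. The E2F partner Tfdp1 rose 1.21-fold in WT and 1.12-fold in KO, and Tfdp2 fell by 0.17 and 0.22. The call of Tfdp1 in KO was lost on leaving out any array of its comparison except KO sham replicate 33 and KO CCI replicates 23 and 40 (adjusted p up to 0.0951). That of Tfdp2 in WT was lost without WT sham replicate 1, 3, 4 or 26 or WT CCI replicate 14, 34 or 36 (adjusted p up to 0.116). Mybl2, which joins MuvB to activate mitotic promoters, differed by 0.04 in WT (limma adjusted p = 0.536) and rose by 0.12 in KO (limma adjusted p = 0.0422), a call that held on leaving out 1 array only for KO sham replicates 9, 10 and 33 and KO CCI replicates 21 and 41 (adjusted p up to 0.121 otherwise). Foxm1 had no row naming it alone.

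Of 7 Cdk inhibitors, 2 rose and 1 fell in WT, and 2 rose in KO. Cdkn1a, the p53 target that arrests the cycle, lay between 8.25 and 8.74 (median 8.65) in WT sham and between 9.45 and 10.17 (median 9.75) in WT CCI, without overlap, a rise of 1.26 (SE 0.15, 2.4-fold, limma adjusted p = 3.53e-07). In KO it ran from 8.14 to 9.32 (median 8.64) after sham and from 9.07 to 10.07 (median 9.49) after CCI, with overlap, a rise of 0.78 (SE 0.15, 1.72-fold, limma adjusted p = 0.000428). The difference between the changes was -0.48 (unadjusted p = 0.0317, limma adjusted p = 0.78). Cdkn2c, an inhibitor of Cdk4 and Cdk6, rose 1.25-fold in both genotypes, and Cdkn1c fell by 0.21 in WT.

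Fewer cells of a type and less RNA per cell cannot be told apart in tissue RNA, and neither can more dividing cells and more transcript in each. Markers of other cell types moved with injury beside the cell cycle genes. Their counts stand against 8.86% of all rows called higher and 7.96% lower in WT, and 8.43% and 8.27% in KO. All 10 monocyte and macrophage markers rose in both genotypes, with list means of 6.21 to 6.39 on WT sham and 7.69 to 8.49 on WT CCI arrays, and of 6.16 to 6.38 and 7.62 to 8.31 in KO. Of 9 microglia markers, 6 rose in WT, and 5 rose and 1 fell in KO. Astrocyte markers rose in 6 of 9 cases and fell in 1 in both genotypes. In WT, Gfap rose most, by 4.55 on the log2 scale, and Vim was 19.7-fold higher. Oligodendrocyte precursor markers rose in 4 of 6 cases in WT and 2 of 6 in KO, led by Olig2 (2-fold and 1.6-fold), and endothelial markers rose in 4 of 8 and 3 of 8 cases, with 1 falling in each genotype, the transporter Slco1a4 (by 0.47 and 0.48).

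Markers of neural progenitors and neuroblasts were mixed, with 2 rising and 2 falling of 10 in WT and 3 rising and 2 falling in KO, and the neuroblast gene Dcx fell by 0.68 in WT and by 0.56 in KO. No lymphocyte marker rose, Cd8a fell by 0.24 in WT (-0.20, limma adjusted p = 0.129, without the 7 arrays high in striatum or choroid plexus markers), and the mean of the 9 measured stayed between 4.70 and 4.90 on all arrays, below the array median. Neutrophil markers rose in 5 of 10 cases in WT and 4 of 10 in KO, 4 of 8 neuronal markers fell in each genotype, and no striatum or choroid plexus marker was called. Which of these cells expressed the cell cycle genes was not tested, and the arrays hold no measure of it.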

How the data were processed

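Arrays were hybridised with biotin-labelled cDNA made from 100 ng of Trizol-extracted RNA, per the labels' protocols. The authors' deposited table holds log2 signals. Its normalization, software and genome build are not given in the sources used here. Of 72688 rows, 6732 were controls and were left out. Names came from the platform annotation, updated for 827 rows through RefSeq. Rows with several genes (1498), or whose chromosome differed from that of the gene (121), were not named.

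All 65956 rows were fitted with limma 3.58.1 in R 4.3.3 (lmFit, eBayes) as 4 group means plus sex, and p-values were adjusted by Benjamini-Hochberg over all rows, with calls at an adjusted p under 0.05. Sex differences came from separate means per sex and group. The scripts were tested on simulated data. There, 23.9% of genotype differences of 0.25 on the log2 scale were recovered after sham and 22.4% after CCI. For differences of 0.5 the shares were 71.6% and 83.6%. For the difference between injury changes, 10.4% were recovered at 0.25 and 49.3% at 0.5. Figures used matplotlib 3.10.9. Alternatives are in the closing section. The members and lists were chosen with earlier results of these data known. Full values were given for the 10 largest rises per injury comparison, genes not called there, and the 5 smallest p elsewhere. From other lists, up to 3 called genes per direction, and Ccnd1, Cdkn1a, Foxm1 and Mybl2, could be named, and from marker lists up to 2. The p-values set differences against the spread between animals. Precision is limited by the number of arrays.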

Additional observations from a re-analysis of the deposited data

Results flagged for a closer look

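Samples were picked out where the gap between a group's highest or lowest array and its nearest neighbour exceeded, as a share of the group's range, Dixon's 95% critical value for 7 arrays. This happened in 15 of 380 groups examined, and chance picks about 1 in 20. Among cell cycle genes, WT CCI replicate 35 was low for Top2a (6.478, nearest 7.413) and Kif4 (5.233, nearest 5.661), and WT CCI replicate 13 was low for Uhrf1 (5.745, nearest 5.917). WT sham replicate 26 was low for Bub1b (4.979, nearest 5.235), WT sham replicate 3 was high for Nusap1 (5.202, nearest 4.944), and KO sham replicate 31 was high for Plk1 (6.163, nearest 5.934).

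Among pathway genes outside the set, KO sham replicate 31 was high for Cdkn2c (5.002, nearest 4.735), WT sham replicate 1 was high for E2f8 (5.205, nearest 5.145), WT sham replicate 2 was low for Pole (5.050, nearest 5.159), and WT sham replicate 3 was high for Cdc25b (7.225, nearest 6.992). Among markers, WT sham replicate 2 was high for the neutrophil genes S100a8 (7.021, nearest 5.006) and S100a9 (7.793, nearest 6.431), and KO CCI replicate 21 was low for S100a8 (6.531, nearest 7.152). KO sham replicate 31 was high for the chemokine Ccl12 (5.370, nearest 4.932), and KO sham replicate 32 was low for Cd24a (8.520, nearest 8.782). Dropping any of these sham arrays left 48 of the 50 genes called in WT and 47 in KO.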

How the results depend on the processing

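Rises were counted again without a sex term, with the title-number run as a covariate, with only the arrays compared, with quantile normalization or centring, a variance trend, array weights, a threshold of 0.01 and without the 7 arrays high in striatum or choroid plexus markers, and gave 47 or 48 genes in WT and 43 to 47 in KO. Without those 7 arrays Anln in WT and Ccne2 and Ezh2 in KO were not called. With dim rows removed, 30 genes were left, of which 28 rose in WT and 27 in KO. Within title numbers 1 to 24 the counts were 45 and 41, and within 25 to 42 they were 36 in WT and 23 in KO, with fewer arrays. Of all 65956 rows, 5900 in WT and 7509 in KO were called within 1 to 24, and 5217 and 2567 within 25 to 42. Leaving out each array in turn gave 48 to 49 calls in WT, of which 48 were rises each time and the other was the fall of Ccne1 without WT CCI replicate 16, and 45 to 47 rises in KO. The gain of mitotic over replication genes then ran from 0.328 to 0.416 in WT and from 0.282 to 0.342 in KO. No genotype, interaction or sex difference was called for any member in any alternative.

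Differences that were not called changed sign in places, and the cause was not tested. In KO, Anln was -0.012 after centring, -0.068 within title numbers 1 to 24 and -0.048 to 0.133 on leaving out single arrays. E2f1 was 0.003 in KO within 1 to 24 and 0.011 in WT within 25 to 42. Within 25 to 42, Cdkn1c (0.065) and Olig1 (-0.012) in KO and the genotype difference of Hells after sham (-0.055) also turned, and Cdkn1c ran from -0.056 to 0.016 without single arrays. No row of another brightness existed for any gene, so the alternative of testing every row of a gene could not be run. No paired analysis was possible because the replicate numbers in the titles differ between all groups. The signals carry no detection calls, so low values have no known floor.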
